A study of Camellia sinensis and Camellia sinensis var. assamica with 18 samples.

Results

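The genes described here are the germin-like proteins of tea (Camellia sinensis) whose transcripts were measurable in leaves. They are the loci whose product description in the deposited table names a germin-like protein and whose FPKM, the length-corrected level of a transcript relative to all mapped fragments of its library, was at least 1 in at least 3 of 18 libraries. Of 41021 loci, 62 carried such a description and 22 of these passed the filter. CSS046823 and CSS046822 were chosen by their measured levels in the 6 groups, since these responded differently in the cultivars, so their values are given as a description with no test, and they are left out of every count of called members. The other 20 were tested.

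Leaves came from tissue culture seedlings, 4 to 5 cm high, of the cold-tolerant cultivar SCZ (Shuchazao) and the cold-sensitive cultivar YH9 (Yinghong 9, of the assamica variety). Non-acclimated seedlings (SCZ_NA and YH9_NA, day 0) were kept at daytime and night temperatures of 25 and 20 °C. Cold-acclimated seedlings (SCZ_CA and YH9_CA, day 14) had 7 days at 10 and 4 °C and then 7 days at 4 and 0 °C, and de-acclimated seedlings (SCZ_DA and YH9_DA, day 21) had a further 7 days back at 25 and 20 °C. Each of the 6 groups had 3 libraries. The labels do not say whether these came from separate plants, so p-values measure only the spread between these libraries. The plants of each cultivar were propagated from cuttings, and the study's methods give 2 to 3 leaves per collection. The paper calls the 3 libraries biological replicates and gives 2 independent experiments per cultivar. Which library came from which experiment is not given.

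Germin-like proteins are secreted glycoproteins of the plant cell wall. They share the cupin fold, a barrel, with germin, the oxalate oxidase of germinating cereals, and with seed storage globulins. In germin this barrel holds a manganese ion. Germin itself breaks oxalate down to hydrogen peroxide and carbon dioxide, whereas several germin-like proteins act as superoxide dismutases, which also yield hydrogen peroxide. In cereals and Arabidopsis the family is divided into numbered subfamilies and is known from defence, wall strengthening and responses to salt, drought and cold. What the individual tea proteins do is not given in the table, and each name used here is that of the best protein match, often from another species.

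The total estimated count per library was 47291392 to 78305612 and the scaling factors (TMM) ran from 0.795 in SCZ_NA replicate 1 to 1.16. Replicates correlated at r = 0.877 to 0.949 in SCZ and 0.946 to 0.971 in YH9 across genes, which are not independent replicates. SCZ_NA replicate 1 held the highest SCZ_NA level of 11 of the 22 germin-like genes, SCZ_DA replicate 2 the highest SCZ_DA level of 14 and YH9_DA replicate 1 the highest YH9_DA level of 16. Results that rest on such a library are given with and without it. The photosynthesis and chlorophyll-binding genes listed as markers of leaf mesophyll were abundant in all libraries, with summed FPKM between 2638 and 42329, as the leaf label requires. Identifiers are those of the SCZ genome annotation, to which the reads of both cultivars were mapped, and whether reads of near-identical copies were divided among loci was not tested.

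By matched description, 6 of the 22 genes belonged to subfamily 1, 3 to subfamily 2, 1 to subfamily 3 and 5 to subfamily T, while 6 matched a germin-like protein of C. sinensis with no subfamily and 1 matched germin-like protein 2 of C. sinensis. Positions were given for 4 genes only, as annotated loci with no exon or UTR detail. CSS033136 lies on Scaffold295 at 3433004 to 3434332 and CSS013819 on Scaffold3529 at 469731 to 476667, both on the minus strand. CSS031946 lies on Scaffold3395 at 277027 to 278196 on the plus strand, and CSS036877 on Scaffold1366 at 1999031 to 1999672 on the minus strand. The other 18 are loci of the authors' transcript assembly. The remaining 40 described loci stayed under the filter: 35 reached an FPKM of 1 in no library, and the highest value of any was 2.44. Just inside the filter were CSS036877 and CSS016482 with 3 libraries each, and just outside it were CSS007093 and CSS004567 with 2 libraries each. Of the 22, 15 reached an FPKM of 1 in at least 1 library of both cultivars, 5 only in YH9 and 2 only in SCZ. For these 7 the filter itself favoured a cultivar difference. Of the 15, CSS039306 and CSS033136 reached it in only 2 SCZ libraries each, so it favoured a lower SCZ level for these too. CSS046184, CSS032529, CSS016482 and CSS031946 reached it in warm libraries alone, so it favoured their warm levels.

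As summed FPKM over all 62 loci, germin-like transcripts were abundant in warm leaves of both cultivars and scarce only in the cold leaves of SCZ. In SCZ the sum was 2096 ± 468 (SD, n = 3) at NA, 325 ± 87.1 at CA and 2036 ± 619 at DA. In YH9 it was 1502 ± 154 in NA, 1038 ± 129 in CA and 1606 ± 301 in DA. The 3 SCZ_CA libraries, at 243 to 417, lay below all other libraries, whose lowest value was 897 in YH9_CA. A handful of genes made up most of this sum. CSS043142, CSS001294, CSS019483, CSS002110 and CSS050729 held between 62.9% and 95.9% of it in each library. Sums of FPKM over loci carry no test here.

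**Figure D1:**
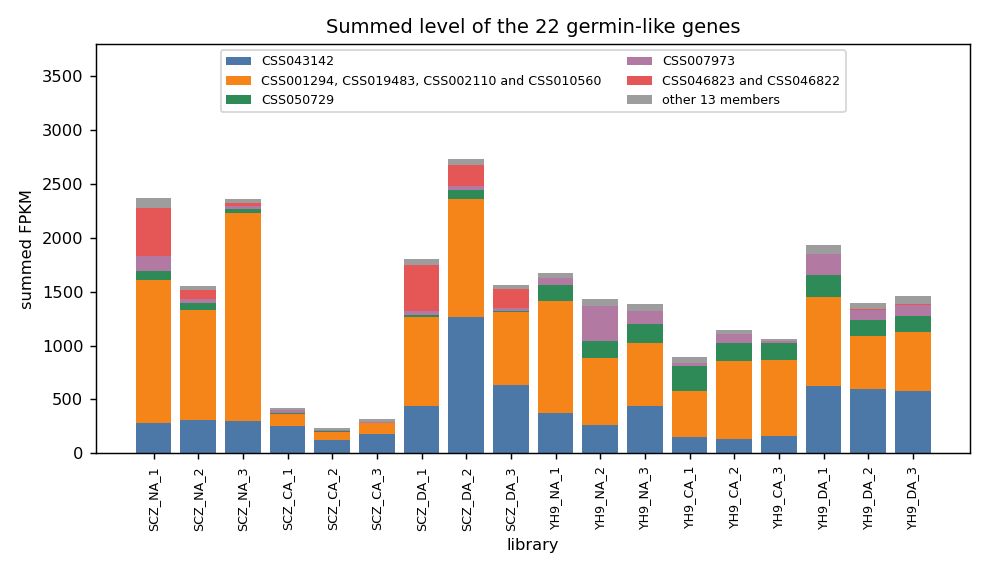
Summed FPKM of the 22 germin-like genes (vertical axis) in each of the 18 libraries (horizontal axis), stacked by gene or gene group. The 3 SCZ_CA bars are the lowest, at 239 to 416, and CSS043142 is their largest part, with 50.4% to 61.2% of each bar.

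**Figure D2:**
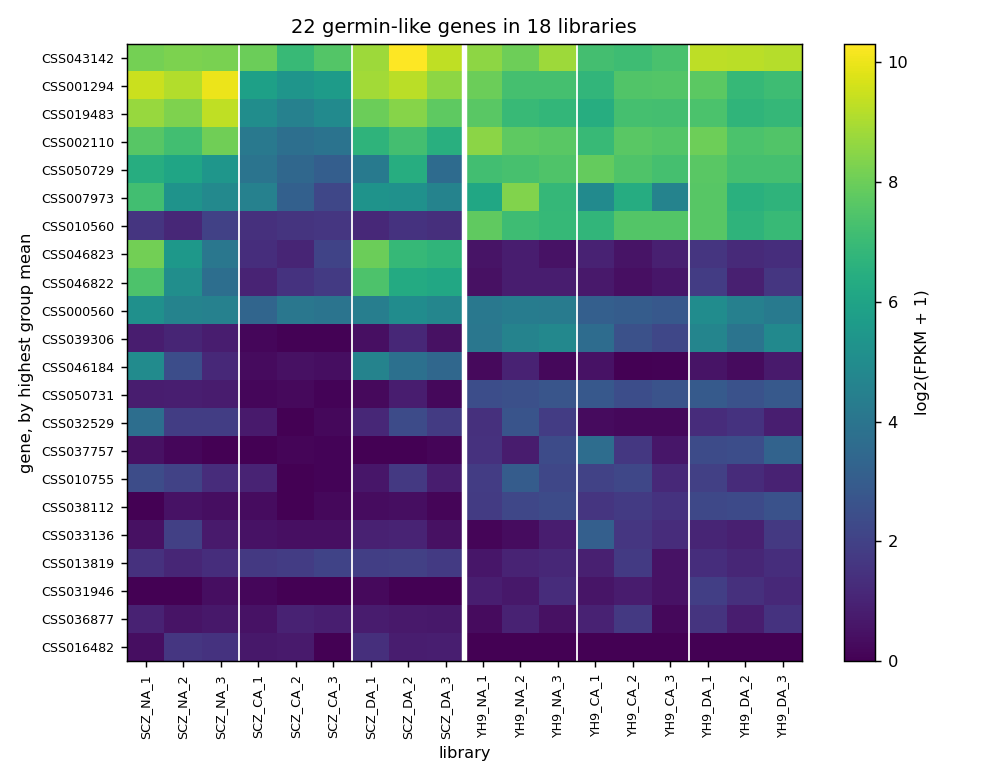
Level of each of the 22 genes (rows, ordered by highest group mean) in each of the 18 libraries (columns, 3 per group), as log2(FPKM + 1). CSS001294 is darkest in SCZ_CA, still at 39.96 to 56.5 FPKM. CSS010560, CSS039306, CSS050731, CSS038112 and CSS037757 are darker in all 9 SCZ libraries than in any YH9 library, and CSS050731 and CSS038112 are low in YH9 as well.

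The subfamily 1 pair CSS046823 and CSS046822, both matched to a member 18 protein of cacao, was high in warm leaves of SCZ and near 1 FPKM elsewhere. CSS046823 had FPKM of 278, 44.2 and 15.9 in SCZ_NA, 1.55, 1.10 and 3.15 in SCZ_CA and 254, 119 and 105 in SCZ_DA. In YH9 the same gene had 0.441, 0.761 and 0.422 in NA, 0.984, 0.437 and 0.879 in CA and 2.01, 1.33 and 1.58 in DA. All 6 warm SCZ libraries lay above all 12 others, and the 3 SCZ_NA libraries spread more widely than any other group. In order of mean level, SCZ_DA (160 ± 82.0, SD) and SCZ_NA (113 ± 144) overlapped, as did SCZ_CA (1.93 ± 1.08) and YH9_DA (1.64 ± 0.346) and then YH9_CA (0.767 ± 0.290) and YH9_NA (0.542 ± 0.190).

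CSS046822 was likewise high in the warm SCZ libraries alone, at a lower level. Its FPKM was 169, 32.8 and 12.1 in SCZ_NA, 1.03, 1.87 and 2.33 in SCZ_CA and 172, 77.5 and 71.5 in SCZ_DA. In YH9 it was 0.367, 0.748 and 0.781 in NA, 0.628, 0.332 and 0.523 in CA and 2.58, 0.855 and 2.13 in DA. Here too SCZ_NA and SCZ_DA overlapped, YH9_DA (1.85 ± 0.895, SD) overlapped SCZ_CA (1.74 ± 0.657), and YH9_NA overlapped YH9_CA. The ratio of CSS046823 to CSS046822 in FPKM was 1.47 in the median SCZ library, with a range of 0.587 to 1.64.

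On the scale of TMM-scaled counts, SCZ_CA against SCZ_NA gave a log2 fold change of −5.90 for CSS046823 and −5.39 for CSS046822. For YH9_CA against YH9_NA the values were 0.44 and −0.39. The cultivars' responses thus differed by −6.34 and −4.99, the contrast on which this pair was chosen. SCZ_NA replicate 1 carries much of these values. Without it the SCZ responses were −3.59 and −3.33 and the differences between cultivars −4.01 and −2.93. For SCZ_DA against SCZ_NA the log2 fold changes were 0.23 and 0.32, and without that library 2.54 and 2.39, so whether warm levels were regained or exceeded depended on 1 library. For SCZ_DA against SCZ_CA they were 6.12 and 5.71.

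A neighbouring locus of the assembly, without description but named CSS046822 as well, had an FPKM of 55.1 in SCZ_DA replicate 1 and 0 in the other 17 libraries. The value of 172 for CSS046822 in that library does not hold the level of this neighbour, and how reads were divided between them was not tested.

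Another member of subfamily 1, CSS046184, matched to a member 13 protein of cacao, was the germin-like gene closest in pattern to the pair over these same libraries. Its FPKM was 30.2, 4.33 and 1.31 in SCZ_NA, 0.230, 0.380 and 0.290 in SCZ_CA and 23.1, 13.1 and 9.81 in SCZ_DA. All 9 YH9 libraries lay between 0 and 0.969. CSS046184 fell by 5.39 ± 1.29 (log2, SE) in SCZ_CA vs. SCZ_NA and was higher by 5.47 ± 1.29 in SCZ_DA vs. SCZ_CA, with no overlap of libraries in either. Without SCZ_NA replicate 1 the cold value was −2.91. This gene was picked out by its likeness to the pair and passed the filter through its warm SCZ libraries alone. Its changes within SCZ and its level against YH9 are therefore given with no test. The cultivar difference in its cold response, −3.79 ± 1.70, rests on the same warm SCZ libraries and is likewise given with no test.

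Over the 18 libraries and 15223 described loci with a group mean of at least 5 FPKM, CSS046822 was the locus most like CSS046823 in log2(FPKM + 1), at Pearson's r = 0.996, followed by CSS046184 at 0.972. CSS007305, an uncharacterized protein, came next at 0.949, CSS051803, matched to a haloacid dehalogenase-like hydrolase, at 0.948 and CSS018115, an unnamed product, at 0.947. For CSS046822 the next were CSS046184 at 0.973, CSS018115 at 0.951, CSS037222, an uncharacterized protein, at 0.949 and CSS051803 at 0.945. Loci of this kind were all high in warm SCZ leaves. CSS051803, for example, averaged 6.81, 1.33 and 10.5 FPKM at SCZ_NA, SCZ_CA and SCZ_DA, against 0.160 in YH9_NA. These are descriptions over libraries that share cultivar and temperature groups.

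**Figure D3:**
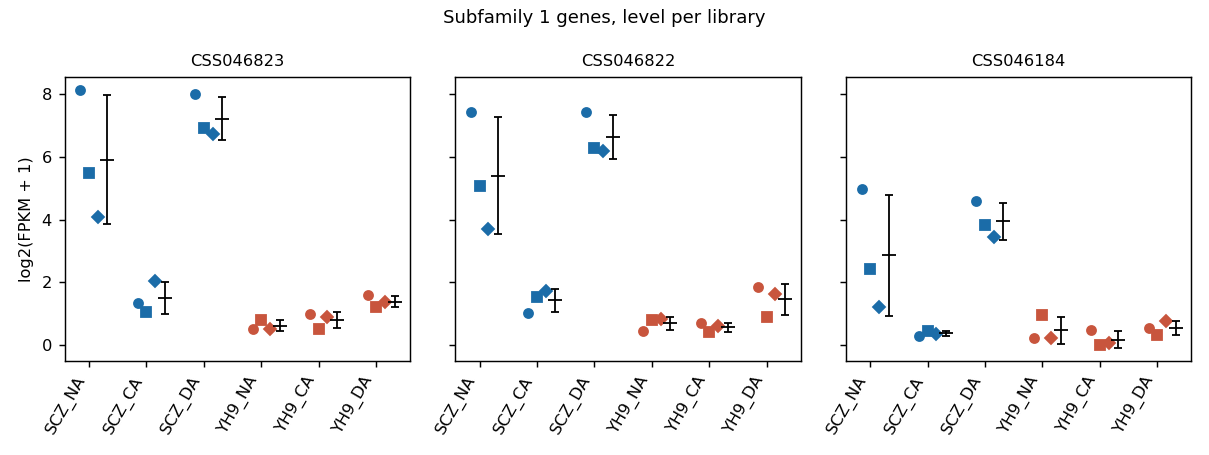
Level of 3 subfamily 1 genes as log2(FPKM + 1) (vertical axis) in the 6 groups (horizontal axis), 1 point per library, with the mean and SD of 3 libraries beside each group. In each gene the SCZ_NA and SCZ_DA points lie above those of SCZ_CA and of all YH9 groups, and SCZ_NA replicate 1 (circle) is the highest SCZ_NA point.

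The other subfamily 1 genes behaved differently from this trio. CSS032529, matched to a member 1 protein, was low in the cold in both cultivars. Its FPKM was 12.0, 2.62 and 2.69 in SCZ_NA and 0.682, 0 and 0.164 in SCZ_CA, and 1.69, 5.35 and 2.53 in YH9_NA and 0.223, 0.182 and 0.158 in YH9_CA. It fell by 4.39 ± 1.05 (log2, SE) in SCZ and by 4.00 ± 1.05 in YH9. The 11 libraries in which it reached an FPKM of 1 were all warm, so the filter itself favoured these falls. Its changes between warm and cold leaves are therefore given with no test. The SCZ value was −2.95 with SCZ_NA replicate 1 left out. With SCZ_CA replicate 1 left out it was −5.83. The difference between these responses was −0.39 ± 1.38. On return to warmth it was higher by 2.99 ± 0.99 in SCZ_DA vs. SCZ_CA. The value was 2.82 without SCZ_CA replicate 3, 2.56 without SCZ_DA replicate 2 and 4.43 without SCZ_CA replicate 1.

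CSS033136, matched to a member 13 protein, was the single tested gene called higher in the cold in either cultivar. Its FPKM was 0.0933, 0.252 and 0.758 in YH9_NA and 7.61, 2.099 and 1.45 in YH9_CA, and 0.387, 2.89 and 0.667 in SCZ_NA and 0.417, 0.345 and 0.350 in SCZ_CA. It rose by 3.34 ± 0.88 (log2, SE) in YH9_CA vs. YH9_NA (edgeR, adjusted p = 0.00879), to a mean of 3.72 FPKM that YH9_CA replicate 1 dominates. Without that library the value was 2.26 with an adjusted p of 0.0577, and without YH9_NA replicate 3 it was 4.32 (adjusted p = 0.00739). In SCZ_CA vs. SCZ_NA it was −1.56 ± 0.82 (adjusted p = 0.14), and the response differed between cultivars by −4.90 ± 1.197 (adjusted p = 0.042). That last call stood at the threshold and was lost in 15 of 26 alternatives, for example without YH9_CA replicate 1 (−3.82, adjusted p = 0.124) or SCZ_NA replicate 2 (−3.76, adjusted p = 0.105), and was −5.89 without YH9_NA replicate 3 (adjusted p = 0.0371). The direct comparison SCZ_CA vs. YH9_CA gave −3.11 ± 0.87, and −2.03 without YH9_CA replicate 1. The gene reached an FPKM of 1 in 5 YH9 but only 2 SCZ libraries, so this comparison is given with no test.

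CSS031946, also matched to a member 13 protein, was near the limit of measurement. It had 0 in 6 of 9 SCZ libraries and at most 0.298 FPKM in the others, against 0.422 to 2.76 in YH9. It passed the filter through YH9 alone, so this difference is given with no test.

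The most abundant germin-like transcript of SCZ_NA leaves, CSS001294, came from a locus matched to a germin-like protein of C. sinensis, and 3 loci with this description passed the test of a cultivar difference in cold response. CSS001294 had FPKM of 711, 556 and 1030 in SCZ_NA, 56.5, 39.96 and 48.9 in SCZ_CA and 473, 607 and 370 in SCZ_DA. In YH9 it had 252, 154 and 155 in NA, 109, 181 and 187 in CA and 210, 118 and 136 in DA. The SCZ groups at NA and CA lay far apart while the YH9 groups overlapped at all stages. CSS019483 had 417, 319 and 632 in SCZ_NA, 31.9, 22.3 and 29.3 in SCZ_CA and 254, 341 and 217 in SCZ_DA, and 85.5 to 202 over all YH9 libraries. CSS002110 had 196, 144 and 267 in SCZ_NA, 16.8, 12.6 and 14.3 in SCZ_CA and 103, 148 and 88.7 in SCZ_DA, and 122 to 364 over all YH9 libraries. Each of these genes thus had an SCZ_CA range below its range in every other group.

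In SCZ_CA vs. SCZ_NA, CSS001294 fell by 3.85 ± 0.36 (log2, SE, edgeR, adjusted p = 2.99e-06), CSS019483 fell by 3.90 ± 0.37 (adjusted p = 3.3e-06) and CSS002110 fell by 3.67 ± 0.36 (adjusted p = 3.78e-06). In YH9_CA vs. YH9_NA the values were −0.29 ± 0.32, −0.24 ± 0.33 and −0.68 ± 0.32, none of them called, although every YH9_CA library of CSS002110 lay below every YH9_NA library (adjusted p = 0.118). The responses differed between cultivars by −3.56 ± 0.47 for CSS001294 (adjusted p = 0.0023), −3.66 ± 0.48 for CSS019483 (adjusted p = 0.0023) and −2.996 ± 0.462 for CSS002110 (adjusted p = 0.00461). These 3 differences were called in all 27 alternatives. On return to warmth CSS001294 rose by 3.12, CSS019483 by 3.08 and CSS002110 by 2.76 in SCZ_DA vs. SCZ_CA, and none of them was called in SCZ_DA vs. SCZ_NA.

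CSS010560, with the same matched description, was at 1.197 to 2.98 FPKM in all 9 SCZ libraries and at 102 to 220 in all 9 YH9 libraries. It was lower in SCZ, with SCZ vs. YH9 log2 fold changes of −6.24 ± 0.44 (SE) at NA, −6.16 ± 0.44 at CA and −6.27 ± 0.45 at DA (adjusted p from 2.62e-07 to 2.92e-07), and its cold response differed by 0.08 ± 0.51. In YH9 its level tracked that of CSS001294, with a ratio of CSS001294 to CSS010560 between 0.983 and 1.29, while in SCZ the ratio ran from 20.6 to 464. The ratio of CSS001294 to CSS002110 also differed by cultivar, at 3.18 to 4.59 in SCZ and 0.691 to 1.01 in YH9, as did that of CSS001294 to CSS019483, at 1.63 to 1.86 and 1.11 to 1.40. A further locus of the assembly, without description but also named CSS019483, had FPKM of 24.9 to 37.8 in SCZ_NA, 1.501 to 3.04 in SCZ_CA and 0.955 to 15.3 in SCZ_DA, and of 46.4 to 94.6 in YH9_NA, 18.04 to 24.4 in YH9_CA and 37.9 to 45.4 in YH9_DA. It is not a member, and unlike CSS019483 its YH9 libraries at NA and CA did not overlap. How many of these 4 loci are separate copies in YH9, and how reads were shared among them, was not tested.

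With the 4 loci summed, a setting chosen after seeing the data, the cold response was called in SCZ and not in YH9, as for CSS001294, CSS019483 and CSS002110 alone. The summed FPKM at NA, CA and DA was 1426 ± 464, 92.8 ± 15.2 and 868 ± 213 (SD, n = 3) for SCZ libraries and 750 ± 251, 617 ± 165 and 625 ± 182 for YH9 libraries. The sum fell by 3.81 ± 0.37 (log2, SE) in SCZ_CA vs. SCZ_NA (edgeR, adjusted p = 4.27e-06) and gave −0.34 ± 0.33 in YH9_CA vs. YH9_NA (adjusted p = 0.464). The cultivar difference in response was −3.47 ± 0.49 (adjusted p = 0.00327). The cultivar differences in warm leaves, in contrast, were no longer called. The sum was 0.95 ± 0.34 higher in SCZ at NA (adjusted p = 0.0559) and 0.64 ± 0.34 at DA (adjusted p = 0.174), although CSS001294 and CSS019483 alone were higher in SCZ, by 2.06 and 1.68 at NA, and CSS010560 alone was lower. At CA the sum was lower in SCZ (−2.52 ± 0.35, adjusted p = 0.000103).

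**Figure D4:**
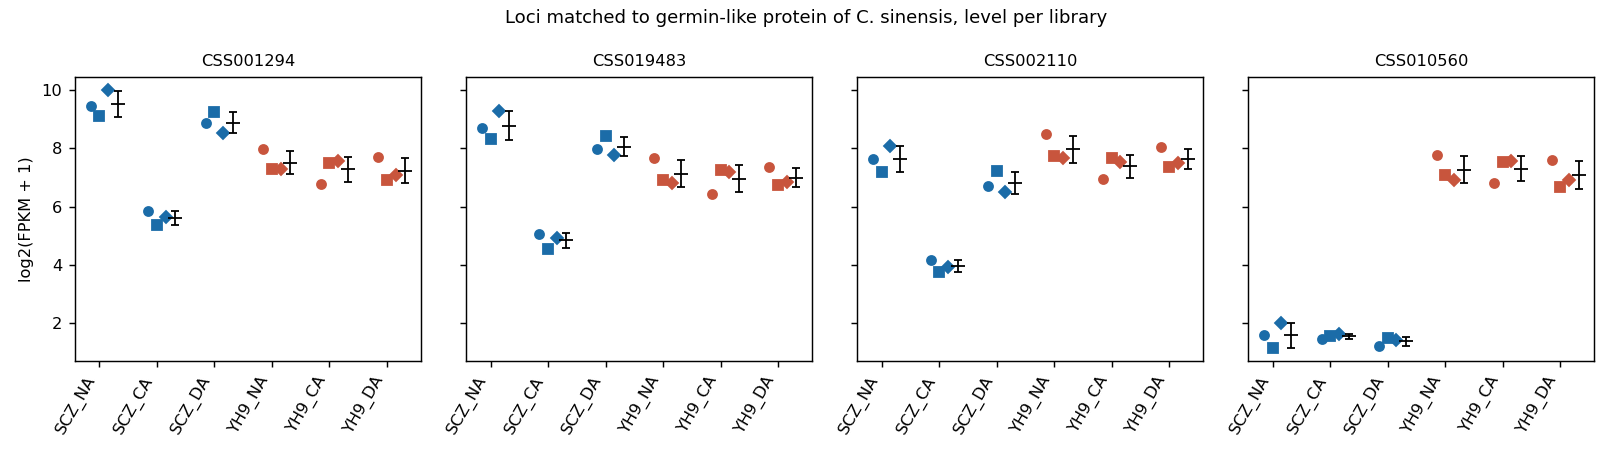
Level of 4 loci matched to a germin-like protein of C. sinensis as log2(FPKM + 1) (vertical axis) in the 6 groups (horizontal axis), 1 point per library, with the mean and SD of 3 libraries beside each group. CSS001294, CSS019483 and CSS002110 lie lowest at SCZ_CA, in YH9 the CA points of CSS002110 lie below its NA points, and CSS010560 separates the cultivars at every stage.

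Of the remaining loci with this description, CSS039306 was a YH9 gene that was low in the cold in both cultivars. Its FPKM was 15.9, 23.4 and 26.9 in YH9_NA, 11.48, 4.94 and 3.56 in YH9_CA and 24.6, 14.7 and 28.3 in YH9_DA. In SCZ it was 0.770, 1.10 and 0.781 in NA, 0.126, 0.0518 and 0.0300 in CA and 0.349, 1.21 and 0.379 in DA. It fell in the cold by 3.32 ± 0.60 (log2, SE) in SCZ (edgeR, adjusted p = 0.000528) and by 1.74 ± 0.49 in YH9 (adjusted p = 0.013). The SCZ value rests on counts of 33 to 54 in SCZ_NA and 2 to 6 in SCZ_CA. Its call was lost with limma on log2(FPKM + 1) (−0.81, adjusted p = 0.0658). The YH9 call was lost without YH9_CA replicate 2 (−1.56, adjusted p = 0.0581) or replicate 3 (−1.42, adjusted p = 0.0591), and the value was −2.40 without replicate 1 (adjusted p = 0.00379). The difference between the responses was −1.59 ± 0.75 (adjusted p = 0.272), and the gene was lower in SCZ at each stage, with −4.58 at NA, −6.17 at CA and −4.95 at DA. These levels between cultivars are given with no test, since only 2 SCZ libraries reached an FPKM of 1. The CA value was −5.51 without YH9_CA replicate 1 and the DA value −5.71 without SCZ_DA replicate 2. In SCZ_DA vs. SCZ_CA the gene rose by 2.82 ± 0.61 (edgeR, adjusted p = 0.00223), and by 2.05 without SCZ_DA replicate 2. That call was lost in 2 of 27 alternatives. In YH9_DA vs. YH9_CA it rose by 1.60 ± 0.49 (adjusted p = 0.0215). This call was lost in 4 of 27 alternatives, for example without YH9_DA replicate 1 (1.55, adjusted p = 0.0548). CSS037757 was at most 0.371 FPKM in SCZ and ranged from 0.525 to 11.9 in YH9, with both extremes in YH9_CA. It passed the filter through YH9 alone, so no test between cultivars is given.

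CSS043142, matched to germin-like protein 2 of C. sinensis, was the most abundant germin-like transcript in the cold leaves of SCZ and in all DA leaves except SCZ_DA replicate 1. Its FPKM was 281, 310 and 297 in SCZ_NA, 255, 121 and 183 in SCZ_CA and 439, 1261 and 634 in SCZ_DA. In YH9 it was 377, 262 and 438 in NA, 148, 136 and 162 in CA and 622, 598 and 576 in DA. Both cultivars thus had their lowest levels in the cold and their highest after de-acclimation. It fell by 1.30 ± 0.33 (log2, SE) in YH9_CA vs. YH9_NA (edgeR, adjusted p = 0.0068), while SCZ_CA vs. SCZ_NA gave −0.54 ± 0.32 (adjusted p = 0.189) with no overlap of libraries. The difference between the responses, 0.76 ± 0.45, was not called (adjusted p = 0.391). In DA vs. CA it rose by 1.86 ± 0.33 in both SCZ (adjusted p = 0.000582) and YH9 (adjusted p = 0.000794). It was also the single tested member called in DA vs. NA of SCZ, by 1.32 ± 0.33 (adjusted p = 0.0379). That call was lost in 11 of 27 alternatives, and without SCZ_DA replicate 2 the value was 0.84 (adjusted p = 0.127).

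Subfamily T held abundant and scarce genes. CSS050729 had FPKM of 83.6, 66.3 and 41.5 in SCZ_NA, 14.48, 9.72 and 7.54 in SCZ_CA and 17.6, 85.5 and 10.99 in SCZ_DA, and 143 to 235 in all YH9 libraries. CSS050731 followed it at a lower level, with 0.717 to 0.845 in SCZ_NA, 0.0695 to 0.206 in SCZ_CA, 0.150 to 0.783 in SCZ_DA and 4.38 to 6.62 in YH9. Both were low in the cold in SCZ, and their YH9 stages overlapped. They fell by 2.53 ± 0.57 (log2, SE, edgeR, adjusted p = 0.00239) and 2.46 ± 0.53 (adjusted p = 0.00188) in SCZ_CA vs. SCZ_NA. The CSS050731 value was under 2-fold with limma on log2(FPKM + 1) (−0.66). Its call was also lost with the spread of only the groups compared (−2.42, adjusted p = 0.0634). The difference from the YH9 response was −2.75 ± 0.77 for CSS050729 and did not pass the test (adjusted p = 0.0703). CSS050731 passed the filter through YH9 alone, so its difference, −2.52 ± 0.70, is given with no test. In DA, SCZ replicate 2 alone was back at the NA level of both genes. CSS050729 was called higher in SCZ_DA vs. SCZ_CA (1.63 ± 0.55, adjusted p = 0.0295) although the groups overlapped, and without SCZ_DA replicate 2 the value was 0.30 (adjusted p = 0.561).

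A further abundant gene of this subfamily, CSS000560, was lowest in the cold in YH9. Its FPKM was 16.6, 19.0 and 18.4 in YH9_NA, 7.76, 6.93 and 6.14 in YH9_CA and 31.1, 21.3 and 17.7 in YH9_DA, and 34.7, 23.1 and 22.02 in SCZ_NA and 9.29, 15.9 and 14.8 in SCZ_CA. It fell by 1.40 ± 0.32 (log2, SE) in YH9_CA vs. YH9_NA (edgeR, adjusted p = 0.00413) and rose by 1.59 ± 0.33 in YH9_DA vs. YH9_CA (adjusted p = 0.00206). In SCZ_CA vs. SCZ_NA its value of −0.90 ± 0.32 had an adjusted p of 0.033 but was under 2-fold. The remaining subfamily T genes, CSS013819 and CSS036877, had FPKM of 0.428 to 3.19 and 0.163 to 2.30 and were called in none of the 10 comparisons.

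Of the subfamily 2 genes, CSS007973 was abundant and variable, and the others marked a cultivar at a low level. CSS007973 had FPKM of 142, 38.7 and 27.7 in SCZ_NA, 21.8, 8.00 and 3.53 in SCZ_CA and 37.8, 36.2 and 23.6 in SCZ_DA. In YH9 it had 69.2, 326 and 115 in NA, 29.6, 81.7 and 23.4 in CA and 196, 92.1 and 102 in DA. It fell by 2.74 ± 0.81 (log2, SE) in SCZ_CA vs. SCZ_NA (edgeR, adjusted p = 0.0138), a call that was lost without SCZ_NA replicate 1 (−1.35, adjusted p = 0.137) or SCZ_CA replicate 3 (−2.39, adjusted p = 0.0502), and was −3.60 without SCZ_CA replicate 1 (adjusted p = 0.00802). The YH9 value, −1.94 ± 0.79, was not called (adjusted p = 0.0713). CSS016482 was listed at 0 in all 9 YH9 libraries and at 0 to 2.13 FPKM in SCZ. Set against the level that 3 counts over a YH9 group allow, a limit that covers counting error only, it was at least 29.8-fold higher in SCZ at NA, at least 9.17-fold at CA and at least 23.98-fold at DA. CSS038112 was the reverse, at 0 to 0.408 FPKM in SCZ and 1.81 to 5.06 in YH9. Each passed the filter through 1 cultivar, so these cultivar differences carry no test.

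The single subfamily 3 gene, CSS010755, had FPKM of 4.29, 3.11 and 1.48 in SCZ_NA and 1.06, 0 and 0.0741 in SCZ_CA. It fell by 2.97 ± 1.07 (log2, SE, edgeR, adjusted p = 0.0351). The call was lost without either of 2 SCZ_NA or either of 2 SCZ_CA libraries, for example without SCZ_NA replicate 1 (−2.37, adjusted p = 0.103) or SCZ_CA replicate 3 (−2.54, adjusted p = 0.0996). Leaving out SCZ_CA replicate 1 gave −5.93 instead (adjusted p = 0.00117). In YH9 its FPKM was 0.990 to 7.03, with overlap between all stages.

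Over the 20 tested genes, 10 fell in the cold in SCZ and 4 in YH9, a difference in counts that was itself tested only gene by gene. In SCZ_CA vs. SCZ_NA 10 fell and 0 rose, where 34.1% of all 29019 tested loci were called, 19.1% lower and 15.0% higher, and their median log2 fold change was −2.01 against −0.06 for all. In YH9_CA vs. YH9_NA 4 fell and 1 rose, where 25.8% of all loci were called, 14.2% lower and 11.7% higher, with medians of −0.48 and −0.01. The difference between the cultivars' responses was called for 4 of the 20, all lower in SCZ, where 2.52% of all loci were called, 1.25% higher and 1.27% lower. Of these, the CSS033136 call was lost in 15 of 26 alternatives, and this gene reached an FPKM of 1 in only 2 SCZ libraries. Whether CSS001294, CSS019483 and CSS002110 share reads was not tested, so they may not be separate results. Over the 13 members measurable in both cultivars, 8 fell in SCZ, 4 fell and 1 rose in YH9, and the same 4 differed in response. CSS046184, in the SCZ count over 20, and CSS032529, in each count of falls, passed the filter through warm libraries alone. The filter thus favoured their falls. No p is given for these counts, since the members were chosen with results known.

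On return to warmth, 8 of 20 rose and 0 fell in SCZ_DA vs. SCZ_CA, where 29.1% of all loci were called, 15.6% higher and 13.5% lower. The 8 include CSS046184 and CSS032529, whose rise the filter favoured. In YH9_DA vs. YH9_CA 3 rose and 0 fell, where 23.5% were called, 13.1% higher and 10.4% lower. Few genes were called between DA and NA leaves. In SCZ_DA vs. SCZ_NA 1 of 20 was called and higher, where 3.03% of all loci were called, 1.45% higher and 1.58% lower. In YH9_DA vs. YH9_NA edgeR, DESeq2 and limma each called 0 of 20, where edgeR called 0.376% of all loci, 0.0551% higher and 0.320% lower, and 1 had an unadjusted p under 0.05. All of these comparisons use the CA or NA libraries of the previous ones.

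Between cultivars the filter itself favoured the 7 members that reached an FPKM of 1 in 1 cultivar alone, so counts over all 20 are a description and are followed by those over the 13 tested members measurable in both. Over the 20, 4 genes were higher and 4 lower in SCZ at NA, where 19.2% of all loci were called, 9.90% higher and 9.29% lower. At CA 2 were higher and 10 lower, where 27.3% were called, 12.8% higher and 14.4% lower. At DA 4 were higher and 7 lower, where 24.0% were called, 11.4% higher and 12.6% lower. Over the 13 members, 2 were higher and 2 lower at NA, 1 was higher and 7 lower at CA, and 2 were higher and 3 lower at DA. Over the 20 on log2(FPKM + 1) with limma the CA split was 0 higher and 12 lower, and the median of all loci shifted by −0.20 on that scale. Of the 13, CSS039306 and CSS010560 were lower in SCZ at all 3 stages. CSS039306 and CSS033136 reached an FPKM of 1 in only 2 SCZ libraries each. The filter thus still favoured their calls as lower in SCZ, which the counts over the 13 include. The CA call of CSS000560 as higher in SCZ (1.16 ± 0.32, adjusted p = 0.012) was under 2-fold with limma. The DA calls of CSS019483 (1.24 ± 0.33, adjusted p = 0.0114) and CSS050729 (−2.01 ± 0.55, adjusted p = 0.0126) were lost without YH9_DA replicate 2 (1.13, adjusted p = 0.053) and SCZ_DA replicate 1 (−1.68, adjusted p = 0.0522), and that of CSS050729 was −3.35 without SCZ_DA replicate 2 (adjusted p = 6.87e-05).

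**Figure D5:**
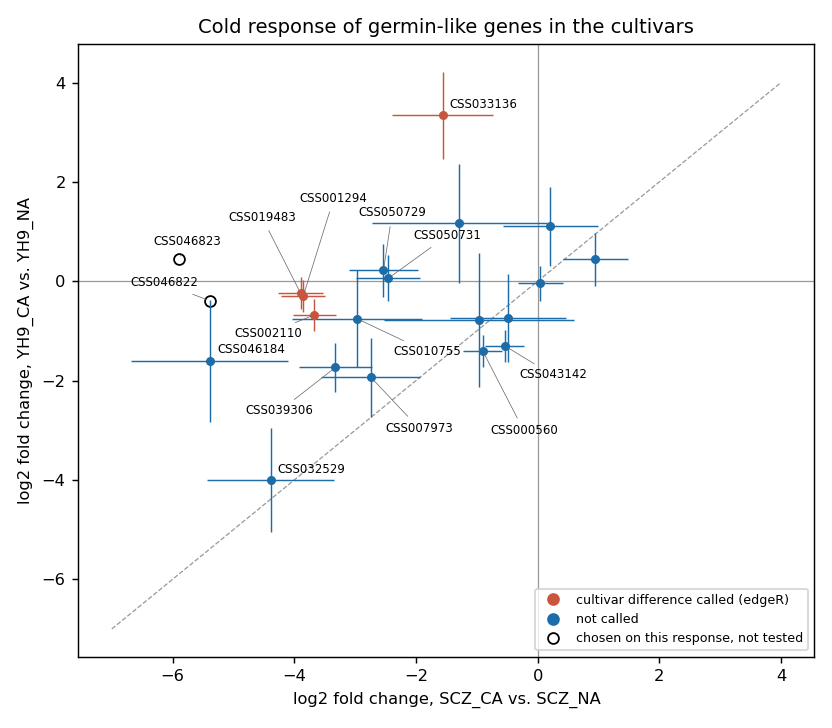
Log2 fold change from NA to CA in SCZ (horizontal axis) and YH9 (vertical axis) for 21 germin-like genes, with SE bars from edgeR. CSS016482, at 0 in YH9, is not drawn, and the dashed line marks equal responses. CSS001294, CSS019483 and CSS002110 lie at −0.29, −0.24 and −0.68 in YH9 and between −3.67 and −3.90 in SCZ.

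Marker genes of leaf cell types moved at the same time. The summed FPKM of the leaf mesophyll list ran from 32642 to 42329 in SCZ_NA, 2638 to 9796 in SCZ_CA and 12885 to 20244 in SCZ_DA. In YH9 it ran from 29233 to 39459, 7467 to 8907 and 11518 to 14580. Of 32 tested mesophyll markers 28 fell in the cold in each cultivar, where 19.1% of all loci fell in SCZ and 14.2% in YH9. The xylem and secondary wall list summed to 303 to 496 in SCZ_NA, 46.1 to 190 in SCZ_CA and 137 to 669 in SCZ_DA, and to 239 to 595, 158 to 274 and 257 to 445 in YH9. Of its 31 tested genes 15 fell and 2 rose in the cold in SCZ, and 3 fell and 2 rose in YH9, where 34.1% and 25.8% of all loci were called. A difference between the cultivars' responses was called for 0 of the 31 (median −1.40). Of 8 tested genes of dividing cells, 4 fell and 1 rose in SCZ and 0 fell and 2 rose in YH9, with median log2 fold changes of −1.14 and 0.57, and the difference between cultivars was called for 0 of the 8 (median −2.51). Their summed FPKM was 76.9 to 176 in SCZ_NA, 111 to 163 in SCZ_CA, 86.1 to 94.1 in YH9_NA and 115 to 171 in YH9_CA. Root endodermis genes, 4 in all, summed to at most 7.27 FPKM in any library. None of the listed markers was at 0 in all 18 libraries. The part of these cell types in the germin-like changes was not tested, and in whole leaves fewer cells of a type and less RNA per cell cannot be told apart.

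Other enzymes that make or remove superoxide and hydrogen peroxide in the wall or the cell were counted in the same comparisons. Among 10 tested superoxide dismutase genes, 2 rose and 1 fell in SCZ_CA vs. SCZ_NA and 1 rose and 1 fell in YH9_CA vs. YH9_NA, beside 34.1% and 25.8% of all loci called in these comparisons. A difference between the cultivars' responses was called for 0 of the 10. The chloroplast-type iron superoxide dismutase CSS008141 rose in SCZ, from 3.17 ± 1.39 to 16.7 ± 3.76 FPKM (SD, n = 3, edgeR, adjusted p = 6.7e-05), and in YH9, from 3.60 ± 0.923 to 8.66 ± 3.79 (adjusted p = 0.0134). CSS050641, of the same name, rose from 1.79 to 10.6 in SCZ (adjusted p = 0.00029). The manganese superoxide dismutase CSS010020 fell from 63.0 to 27.4 in SCZ (adjusted p = 0.00889).

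Of 4 tested catalases, which remove hydrogen peroxide, 3 fell in the cold in SCZ and 2 in YH9, beside 19.1% and 14.2% of all loci, while CSS001687 had log2 fold changes of −0.08 and 0.30. In SCZ CSS000510 fell from 474 ± 151 to 95.2 ± 30.4 FPKM, and in YH9 from 464 ± 92.0 to 106 ± 9.71 (adjusted p = 8.24e-05 and 0.000178). CSS007321 fell in SCZ from 148 to 47.9 and in YH9 from 203 to 93.5 (adjusted p = 0.00223 and 0.017), and CSS034301 fell in SCZ from 2.05 to 0.509 (adjusted p = 0.0351), its cultivar difference not being called (−1.93 ± 0.95, adjusted p = 0.288). Neither of the 2 tested respiratory burst oxidase genes, which make superoxide, was called. Of 6 ascorbate oxidase genes 1 fell in SCZ, and 1 rose and 1 fell in YH9, where 34.1% and 25.8% of all loci were called.

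Of 7 tested amine and polyamine oxidase genes, whose products release hydrogen peroxide, 3 rose and 2 fell in SCZ, where 34.1% of all loci were called, and 2 rose and 1 fell in YH9, where 25.8% were. The most abundant, the primary amine oxidase CSS051194, fell from 584 ± 94.4 to 253 ± 82.7 FPKM in SCZ (edgeR, adjusted p = 0.00788) and was at 739 ± 247 and 729 ± 202 in YH9. Its cultivar difference in response was not called (−1.10 ± 0.43, adjusted p = 0.177). CSS045741, also a primary amine oxidase, fell from 42.9 to 6.75 in SCZ (adjusted p = 0.000198) and from 60.0 to 15.5 in YH9 (adjusted p = 0.00181). The polyamine oxidase CSS007050 rose from 15.5 to 39.2 and from 18.7 to 40.8 (adjusted p = 0.000497 and 0.00445).

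The table held 1 gene described as an oxalate oxidase, the activity of true germin. CSS022268 fell from 12.1 ± 10.3 to 0.586 ± 0.846 FPKM in SCZ_CA vs. SCZ_NA (edgeR, −4.21 ± 1.02 on the log2 scale, adjusted p = 0.00401) and went from 7.02 ± 3.44 to 2.58 ± 1.25 in YH9 (adjusted p = 0.233). Its cultivar difference in response, −2.75, was not called. Among 5 tested cupins of other kinds, 1 rose in SCZ, and 1 rose and 1 fell in YH9, beside 34.1% and 25.8% of all loci called. CSS048737, matched to a glutelin seed storage protein, rose from 9.08 to 24.8 in SCZ (adjusted p = 0.000104). CSS020327, matched to another glutelin, rose from 10.1 ± 9.05 to 105 ± 34.3 in YH9 (adjusted p = 0.0365). In SCZ it went from 68.6 ± 62.8 to 251 ± 357 and was not called (adjusted p = 0.142). A difference between the cultivars' responses was called for 0 of the 5. CSS032977, a cupin of unknown function, fell from 77.9 to 32.9 in YH9 (adjusted p = 0.0299).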

How the data were processed

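RNA-seq of leaves was analysed for 18 libraries, 3 in each of 6 groups set by the sample labels. FPKM values and estimated counts, in whole numbers, were made by the authors and used as deposited. The submitters' processing notes list cutadapt 1.9, HISAT2 2.2.1, UMI-tools, StringTie 2.1.6, edgeR and DESeq2, and which program wrote the counts is not stated. The paper gives another StringTie version and another sequencer, and the genome build in the notes is a mouse build, which the tea scaffolds and identifiers contradict. The kit marks strand, and whether counting used it is not given in the sources used here.

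Counts, rounded to whole numbers, of the 29019 loci that reached an FPKM of 1 in 3 libraries or more were tested in edgeR 4.0.16 under R 4.3.3, with TMM scaling, 1 mean per group over all 18 libraries, the quasi-likelihood test and Benjamini-Hochberg adjustment over all tested loci. A call needs an adjusted p under 0.05 and a 2-fold change. The SE is the log2 fold change divided by the square root of F. Levels are deposited FPKM, which are per length, with the SD of 3 libraries. Limma 3.58.1 on log2(FPKM + 1) or log2(FPKM + 0.1), DESeq2 1.42.0, other scalings, filters and spreads, a replicate block and each library left out were the alternatives.

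The members, gene lists and tests were chosen with earlier results of these data known. Named besides CSS046823 and CSS046822 were members called in any of 10 comparisons or with a group mean of at least 10 FPKM, the 3 most abundant called genes of each list and the 5 loci most like the pair. CSS013819 and CSS036877 were named as the members never called. On counts simulated for SCZ_CA vs. SCZ_NA over 29019 loci, 52% of genes raised and 50% of genes lowered 4-fold were called, and 4% and 0% of those changed 2-fold, the threshold itself, with 3 false calls. The changed genes were drawn from loci with a mean count of at least 50, so members with lower counts are not covered. Protein and promoter sequences were not used here.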

Additional observations from a re-analysis of the deposited data

Results flagged for a closer look

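The cold response of 4 genes differed between the cultivars by the test of the difference itself, as the SCZ response minus the YH9 response on the log2 scale (edgeR). The values were −4.90 for CSS033136, −3.56 for CSS001294, −3.66 for CSS019483 and −2.996 for CSS002110. CSS033136 rose in the cold in YH9, its value rests on low levels, and its call was lost in 15 of 26 alternatives. CSS001294, CSS019483 and CSS002110, at high levels, were called lower in SCZ and not in YH9. No group was large enough to look for single outlying libraries by the criterion set for groups of 4 or more.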

How the results depend on the processing

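Of 62 calls of single genes, 41 held under every alternative but the summing of loci named below. The 62 include cultivar calls of the 7 members that passed the filter in 1 cultivar, and the other calls that the filter favoured. The 1649 values of these calls under those alternatives kept their direction, and 84 of them were no longer past the threshold. With the spread of only the groups compared, the calls among 20 genes were 6 in SCZ_CA vs. SCZ_NA, 0 in SCZ_DA vs. SCZ_NA, 5 in SCZ_DA vs. SCZ_CA and 5 in YH9_DA vs. YH9_CA, against 10, 1, 8 and 3. When an FPKM of 5 in 3 libraries or more was required, 11 members remained for testing, with 3 calls in YH9_CA vs. YH9_NA and 7 in SCZ_DA vs. YH9_DA, against 5 and 11 of 20. With the 4 C. sinensis loci summed, chosen after seeing the data, the direction of CSS010560 was reversed at NA (0.95) and DA (0.64). The cause of these changes other than the smaller number of genes or samples was not tested.

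Leaving out single libraries gave 8 to 11 calls in SCZ_CA vs. SCZ_NA, 4 to 6 in YH9_CA vs. YH9_NA, 0 to 2 in SCZ_DA vs. SCZ_NA, 0 in YH9_DA vs. YH9_NA, 6 to 9 in SCZ_DA vs. SCZ_CA and 2 to 4 in YH9_DA vs. YH9_CA. Between cultivars it gave 7 to 9 at NA, 10 to 14 at CA and 9 to 12 at DA, and 3 to 6 for the difference in response. In SCZ_DA vs. SCZ_NA there were 0 calls without SCZ_NA replicate 2 or 3, SCZ_DA replicate 3, YH9_CA replicate 2 or 3 or any YH9_DA library, and 2 without SCZ_DA replicate 2.

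With the replicate number as a block, 0 genes were called in SCZ_DA vs. SCZ_NA against 1, and the other counts were within 1.5 times. Same-numbered libraries of different groups deviated together at r over 0.1 in only 7 of 45 pairs (r from −0.20 to 0.38), so the numbers were not taken to pair the samples. In the counts simulated for SCZ_CA vs. SCZ_NA a change of 2-fold was rarely called, and one of 4-fold in 50% to 52% of genes. A gene without a call there may still differ by either amount.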
